A study of Drosophila melanogaster with 12 samples.

Results

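The vacuolar proton ATPase (V-ATPase) genes of Drosophila melanogaster, taken as every gene with a FlyBase symbol that starts with Vha, were followed through guts and fat bodies of adult females with and without induced RNAi against the ETS transcription factor Pnt. Of 33 such genes in the reference annotation, 22 were matched in the deposited counts, among 11409 genes in all. The gut counts held 20 of them and the fat body counts 21, with 19 in both. VhaAC39-2 was in the gut counts only, and Vha36-3 and VhaAC45RP were in the fat body counts only. The other 11, namely Vha16-2, Vha16-3, Vha16-4, Vha16-5, Vha100-3, Vha36-2, Vha14-2, VhaM9.7-a, VhaM9.7-d, VhaPPA1-2 and Vha44, were not analysed here, so subunit C, which Vha44 encodes, has no value below. Genes were matched by current identifier only, and a gene counted under an older one, which may be so for Vha44, would have been missed.

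The V-ATPase is a rotary pump that spends ATP to move protons across membranes. Its V1 sector lies in the cytosol and hydrolyses ATP, with the catalytic sites on subunits A and B, and its V0 sector lies in the membrane and carries the protons through a ring of c subunits held against subunit a. The pump acidifies lysosomes and endosomes in all cells and is placed at the cell surface in acid-secreting and ion-transporting epithelia, including the copper cells of the fly midgut and the Malpighian tubules. Several subunits are encoded by more than one gene, and isoforms of subunit a are known to send the pump to different membranes.

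All flies carried the S106 GeneSwitch driver, which is active in gut and fat body when flies eat RU486, together with UAS-Pnt RNAi. Induced flies received RU486 for 6 days after 48 h of mating and control flies received vehicle, by each sample's own induction label and the study's methods. The treatment text of the labels gives 200 µM RU486 for every sample, controls included. The groups were induced guts, control guts, induced fat bodies and control fat bodies, with 3 libraries each and 12 libraries in all, every library made from pooled organs of 12 flies. By the study's methods, tubules had been removed from the guts. The "fat body" was the abdomen left after the gut and the reproductive anatomy were taken out, so other abdominal tissue was included. No library came from flies fed RU486 without the transgene, so effects of the inducer and of the RNAi cannot be told apart.

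Total counts ranged from 5916313 to 10254951 in guts and from 4932359 to 9580571 in fat bodies. Gut digestive markers summed to between 22219 and 45968 CPM (counts scaled to a common library size) in guts and between 15.6 and 47 CPM in fat bodies. Fat body markers summed to between 506 and 1514 CPM in guts and between 21670 and 91134 CPM in fat bodies. Of 6 fat body markers tested between tissues, 4 were lower in the gut, 1 was higher and 1 did not pass. Lpin went the other way, with 47.1 to 124 CPM in guts and 27.7 to 53.5 CPM in fat bodies. Muscle markers reached 1389 to 1631 CPM in guts and 1534 to 3736 CPM in fat bodies, so muscle RNA was present in both. Ovary markers summed to 8.82 to 412 CPM in guts and 32.5 to 247 CPM in fat bodies. The spermatheca marker Send1 was at 0 to 6.38 CPM in guts and 240 to 502 CPM in fat bodies. Markers of reproductive tissue were thus still seen after dissection, and their part in the Vha values was not tested. The target pnt was at 24.9 to 28.2 CPM in induced guts and 27.5 to 34.9 CPM in control guts (log2 difference -0.31 ± 0.21 SE, edgeR adjusted p = 0.838), and at 7.11 to 9.73 CPM in induced and 9.59 to 11.7 CPM in control fat bodies (-0.30 ± 0.26, edgeR adjusted p = 0.986), neither past the test. In control gut library 112, none of the 20 Vha genes lay between the values of the other controls, while 10 fell inside the span of the induced guts. In control fat body library 106, 3 of 21 Vha genes lay between the other controls and 6 inside the span of the induced fat bodies. These counts were not computed over all genes or for the other controls, so they describe the Vha genes only. Results are given with and without these libraries where that changed a call.

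The pump was far more abundant as transcript in the gut. Vha genes took between 1.37% and 1.64% of all counts in gut libraries and between 0.329% and 0.454% in fat body libraries. The 19 genes present in both tissues summed to 17637 ± 960 CPM in guts and 3407 ± 521 CPM in fat bodies (SD, n = 6 each), with no overlap between tissues. In this kind of bulk tissue, fewer cells of a type and less RNA per cell cannot be told apart.

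Gene by gene, 16 of the 19 were higher in the gut at a 10% false discovery rate (FDR) by edgeR, where 25.5% of 10005 genes were, and 2 of 19 were lower in the gut, where 27.7% of all genes were. The median log2 difference of gut minus fat body was 2.31 over the 19 genes and -0.04 over all genes. The leading gene of a subunit was the one with the highest mean length-scaled level, each tissue weighing the same. For all 12 subunits other than a, with the accessory protein AC45 counted as one, it was higher in the gut. These 12 genes kept to a narrow band, from 2.11 to 2.83 on the log2 scale, or 4.33-fold to 7.13-fold, with standard errors of 0.16 to 0.27. With Vha100-5, the leading gene of subunit a, the 13 leading genes ran from 2.11 to 7.32. All 16 genes that were higher in the gut had every gut library above every fat body library. The share of all genes with such a separation was not computed, so this is a description of the values only.

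**Figure D1:**
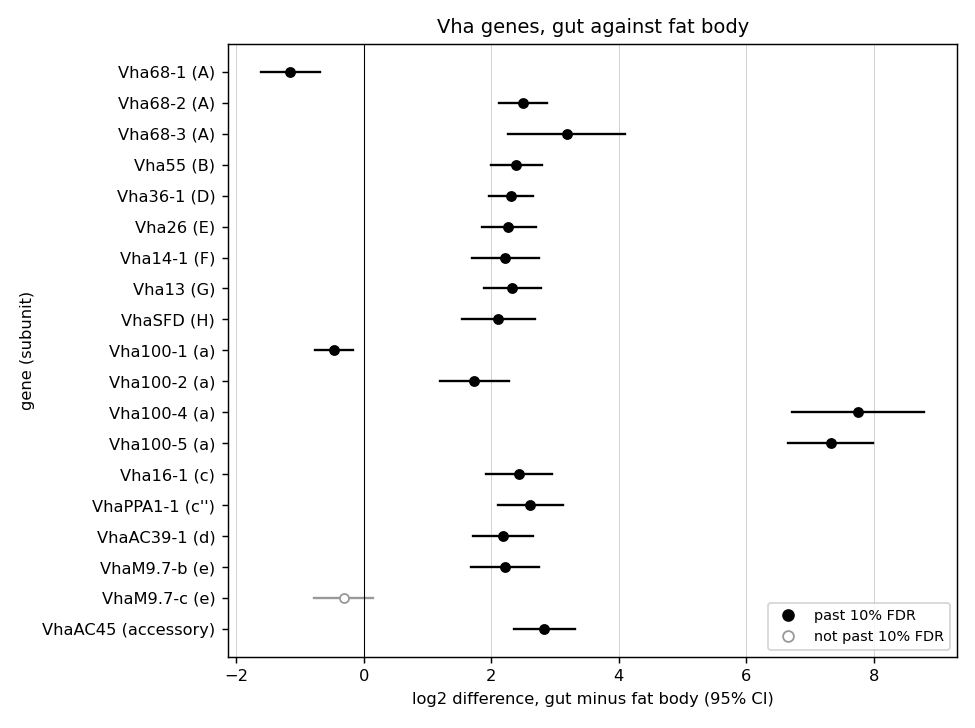
Log2 difference of gut minus fat body (x axis) for the 19 Vha genes present in both tissues (rows, subunit in brackets), with 95% confidence intervals from edgeR over 12 libraries; filled points passed 10% FDR. The leading genes of 12 subunits sit between 2.11 and 2.83, Vha100-5 and Vha100-4 lie at 7.32 and 7.75, and Vha68-1, Vha100-1 and VhaM9.7-c lie left of 0.

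Within the V1 sector, the ATP-hydrolysing pair was led by Vha68-2 (subunit A, chr2L:12974322-12978607, plus strand) and Vha55 (subunit B, chr3R:12623762-12627829, minus strand). The length-scaled level, in CPM per kilobase of exon, of Vha68-2 came to 332, 329 and 344 in induced and 442, 455 and 316 in control guts, set against 49.1, 68 and 60.8 in fat bodies with induction and 74.9, 64.7 and 75.4 in those without. Vha55 reached 467, 447 and 482 in induced and 622, 594 and 445 in control guts, set against 80.5, 86.2 and 83.8 in fat bodies with induction and 104, 91 and 140 in those without. For both genes the lowest gut library was more than 3 times the highest fat body library. The log2 difference between tissues was 2.50 ± 0.17 for Vha68-2 (edgeR adjusted p = 8.4e-08) and 2.39 ± 0.18 for Vha55 (edgeR adjusted p = 1.9e-07).

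The central shaft and the peripheral stalks that hold V1 to V0 differed between tissues by a similar amount. Vha36-1, the shaft subunit D, differed by 2.31 ± 0.16 on the log2 scale and Vha14-1, the shaft subunit F, by 2.22 ± 0.24. The stalk subunits E (Vha26) and G (Vha13) differed by 2.27 ± 0.20 and 2.33 ± 0.21. VhaSFD, the regulatory subunit H, differed by 2.11 ± 0.27. Each of these 5 passed the test, with edgeR adjusted p between 8.3e-08 and 2.3e-05. Vha36-3, a second subunit D gene, was in the fat body counts only, at 5.1 to 12.8 CPM per kilobase, and made up 5.79% to 10.3% of subunit D there.

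In the V0 sector, Vha16-1, which encodes the c subunit of the proton-carrying ring, had the highest mean level of the Vha transcripts in guts by length, although Vha13 was above it in libraries 107 and 112. Its length-scaled level stood at 1497, 1977 and 2037 in induced and 2006, 1741 and 1635 in control guts, set against 250, 340 and 350 in fat bodies with induction and 253, 308 and 514 in those without. The lowest gut library was therefore well above the highest fat body library, and the log2 difference was 2.44 ± 0.24 (edgeR adjusted p = 2.4e-06). VhaPPA1-1, the c'' subunit of the same ring, differed by 2.61 ± 0.24, and VhaAC39-1, the d subunit that joins ring and shaft, by 2.18 ± 0.22. VhaAC45, an accessory protein of V0, differed by 2.83 ± 0.22, the highest value among the leading genes of subunits other than a.

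The order of the genes by length-scaled level was much alike in both tissues. Vha16-1 (1816 ± 224) and Vha13 (1750 ± 466) headed the gut, and Vha13 (343 ± 61.7) and Vha16-1 (336 ± 96.7) headed the fat body (mean ± SD, n = 6), and this pair did not differ beyond its spread in either. Vha26 was next in both, with 944 ± 188 in guts and 195 ± 10.9 in fat bodies, followed by VhaM9.7-b and Vha14-1. From VhaM9.7-b down to VhaAC39-1, means of the gut ran only from 586 to 456 with standard deviations of 58.5 to 199, so neighbours in that stretch did not differ beyond their spread. The summed levels of V1 genes were 1.11 to 1.72 times those of V0 genes in gut libraries and 0.983 to 1.57 times in fat body libraries, ranges that overlapped.

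**Figure D2:**
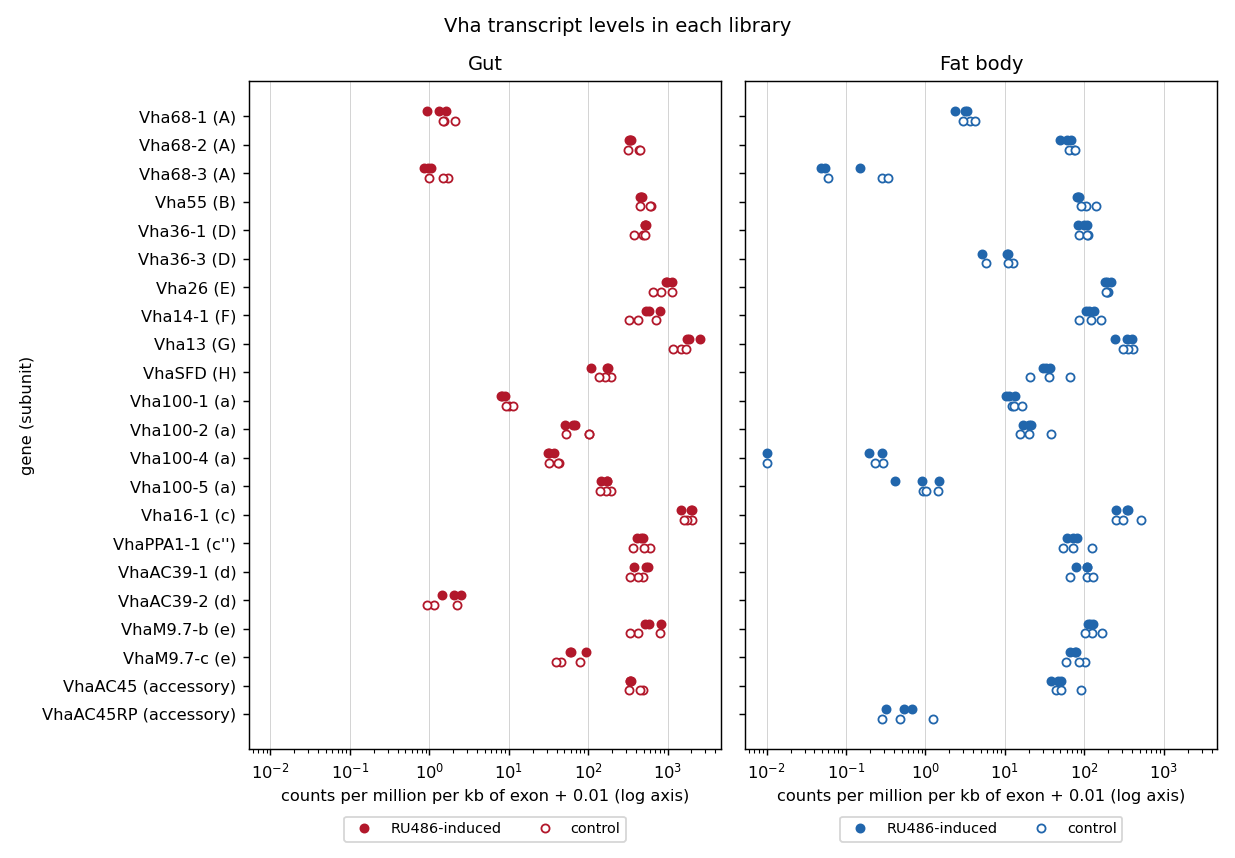
Length-scaled level (CPM per kilobase of exon, plus 0.01 so that libraries at 0 can be drawn, log axis) of each of the 22 Vha genes in every library, in guts (left panel) and fat bodies (right panel), with filled points for induced and open points for control libraries. Vha16-1 and Vha13 head both tissues, and Vha100-4 and Vha100-5 fall to near 0 only in the right panel.

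Subunit a, the membrane arm that the c ring turns against, was the subunit whose leading isoform differed between the tissues. Together its 4 measured genes came to 285 ± 44.5 CPM per kilobase in guts and 36.1 ± 10.2 in fat bodies (SD, n = 6 each). Vha100-5 held 51.3% to 62.6% of this in guts and 1.45% to 4.44% in fat bodies. Vha100-2 held 21.1% to 32.2% in guts and 53.4% to 68.4% in fat bodies. The gene that led subunit a was thus Vha100-5 in all 6 guts and Vha100-2 in all 6 fat bodies. Vha100-1 made up 2.92% to 3.96% in guts and 29.8% to 42.5% in fat bodies, and Vha100-4 11.1% to 15.2% in guts and 0% to 0.987% in fat bodies. These shares are a description and were not tested.

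**Figure D3:**
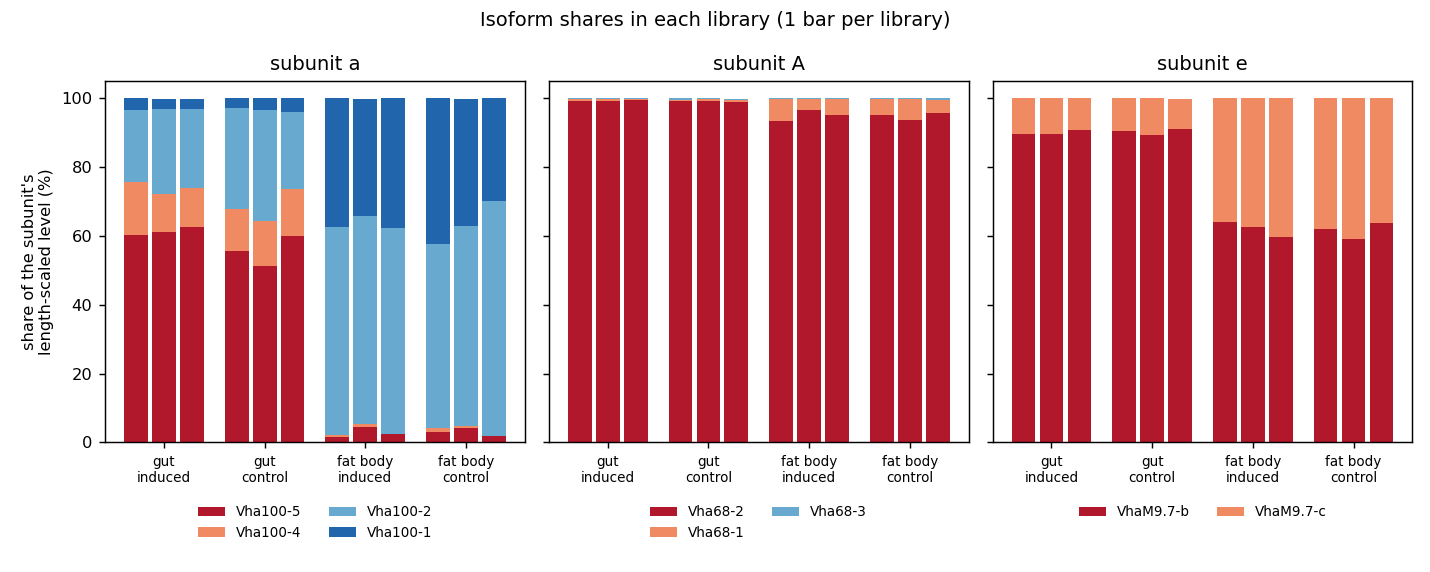
Share of each isoform in the summed length-scaled level of its subunit (y axis, %), with 1 bar per library, guts left of fat bodies and induced left of control. In subunit a, Vha100-5 makes up 51.3% to 62.6% in guts and Vha100-2 53.4% to 68.4% in fat bodies; in subunit e, VhaM9.7-c takes a larger part of fat body bars; subunit A is nearly all Vha68-2.

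Vha100-5 (chr2L:11738948-11744524, plus strand) had 2068, 4007 and 3308 counts in induced and 4082, 5064 and 2383 in control guts, set against 7, 46 and 24 in fat bodies with induction and 24, 34 and 26 in those without. Every gut library held at least 2068 reads and no fat body library more than 46. The log2 difference was 7.32 ± 0.31, a 160-fold higher level in the gut (95% CI 6.65 to 7.98, edgeR adjusted p = 1.6e-09). An antisense gene, asRNA:CR44144, overlaps 18.1% of the exonic bases of Vha100-5, and whether counting used strand is not given in the sources used here, so reads of this stretch cannot be assigned to one of them. The antisense gene was itself at 97.3 to 152 CPM in guts and 0.798 to 2.24 CPM in fat bodies (log2 difference 6.31 ± 0.29).

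Vha100-4 (chr3R:18386841-18389805, minus strand) had 487, 680 and 570 counts in induced and 836, 1196 and 507 in control guts, set against 3, 8 and 0 in fat bodies with induction and 7, 5 and 0 in those without. The difference of 7.75 ± 0.48 on the log2 scale (95% CI 6.71 to 8.79, edgeR adjusted p = 3.0e-08) rests on these few fat body reads. The value ran from 7.46 to 8.25 when each library was left out in turn. Vha100-4 has been tied to acid secretion by copper cells. Markers of the copper cell region summed to 79.4 to 121 CPM in guts, from 4 genes, and to 12.2 to 21.9 CPM in fat bodies, from 3 genes. Of the 3 markers in both tissues Ptx1 (3.88 ± 0.28) and dve (4.38 ± 0.44) were higher in the gut and ct (-2.34 ± 0.46) was lower, and the part of these cells in the Vha100-4 value was not tested.

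Vha100-2 (chr3R:18390323-18399169, minus strand) lies 517 bases from Vha100-4 on the same strand. Its length-scaled level stood at 51.1, 69.2 and 64 in induced and 102, 104 and 52.5 in control guts, set against 17, 20.1 and 21.5 in fat bodies with induction and 15.5, 20.2 and 38.2 in those without. Guts lay above fat bodies throughout, but the log2 difference of 1.73 ± 0.25 (edgeR adjusted p = 8.2e-05) was the lowest among the genes that were higher in the gut. The neighbours therefore had unlike patterns, with 22.1 ± 8.2 for Vha100-2 and 0.161 ± 0.13 for Vha100-4 in fat bodies (CPM per kilobase, SD, n = 6 each).

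Vha100-1 (chr3R:29131193-29137980, plus strand), known for its role in neurons, ran the other way. It stood at 7.95, 8.93 and 8.33 CPM per kilobase in induced and 10.2, 11.3 and 9.31 in control guts, set against 10.4, 11.3 and 13.5 in fat bodies with induction and 12.3, 12.9 and 16.6 in those without. The tissues overlapped at 10.4 to 11.3, and the log2 difference was -0.46 ± 0.14 (edgeR adjusted p = 0.0164). In control libraries alone it was -0.44 and no longer passed (edgeR adjusted p = 0.311). Of 4 neuron markers, all 4 were lower in the gut, with elav at -2.34 ± 0.22, and their sum was 16.9 to 41 CPM in guts and 75.4 to 137 CPM in fat bodies. The part of neurons in the Vha100-1 value was not tested.

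Subunit A has 3 genes, all on chromosome arm 2L, and Vha68-2 made up 99% to 99.5% of it in guts and 93.5% to 96.6% in fat bodies. Vha68-3 (chr2L:12978786-12981293) follows Vha68-2 on the same strand with 178 bases between them, and Vha68-1 (chr2L:13000770-13004107) lies 19476 bases farther on the other strand. Vha68-1 had 21, 28 and 16 counts in induced and 29, 41 and 32 in control guts, set against 52, 68 and 76 in fat bodies with induction and 87, 93 and 69 in those without, so that no gut reached any fat body. It was lower in the gut by -1.15 ± 0.22 on the log2 scale (edgeR adjusted p = 7.1e-04), opposite to Vha68-2. Vha68-3 was rare in both tissues, with 10 to 38 counts in guts and 1 to 7 in fat bodies, and was higher in the gut by 3.18 ± 0.42 (edgeR adjusted p = 4.0e-05). Vha68-1 and Vha68-2 are close relatives, and how reads that fit both were counted is not given in the sources used here, so the low values of Vha68-1 are uncertain to that extent.

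Subunit e, a small V0 subunit, was split between VhaM9.7-b (chr3L:21539862-21541215, plus strand) and VhaM9.7-c (chr3L:4186018-4186865, minus strand). VhaM9.7-b had 826, 526 and 592 CPM per kilobase in induced and 429, 336 and 809 in control guts, set against 117, 129 and 112 in fat bodies with induction and 168, 125 and 103 in those without. VhaM9.7-c had 93.9, 61.1 and 59.5 in induced and 45.6, 39.5 and 78.8 in control guts, set against 65.4, 77.7 and 75.5 in fat bodies with induction and 102, 86.4 and 58.6 in those without. Only VhaM9.7-b separated the tissues, by 2.21 ± 0.25 on the log2 scale (edgeR adjusted p = 7.5e-06), whereas VhaM9.7-c had a difference of -0.31 ± 0.21 (95% CI -0.78 to 0.15, edgeR adjusted p = 0.251). VhaM9.7-c thus made up 8.87% to 10.5% of subunit e in guts and 35.9% to 40.8% in fat bodies, with no overlap. Without control gut library 112 the difference of VhaM9.7-c was -0.49 and passed the test (edgeR adjusted p = 0.0468), and without libraries 106 and 112 it was -0.59 (edgeR adjusted p = 0.0087).

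The remaining paired subunits were led by 1 gene in each tissue. VhaAC39-2, a second d subunit gene, had 10 to 16 counts in gut libraries and made up 0.22% to 0.665% of subunit d there. VhaAC45RP, a relative of VhaAC45, had 3 to 17 counts in fat body libraries and made up 0.296% to 2.36% of their sum. Both were in the counts of 1 tissue only and were not compared between tissues, since a gene left out of the counts need not be at 0.

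Tubule tissue, rich in V-ATPase, was checked beside these differences. All 8 Malpighian tubule markers were in both sheets of counts and summed to 17.1 to 231 CPM in induced guts, 27.3 to 209 CPM in control guts, 171 to 219 CPM in induced fat bodies and 87.2 to 375 CPM in control fat bodies. None of the 8 passed the test between tissues, with a median log2 difference of -0.84, on the fat body side. Induced gut libraries 107, 108 and 109, with 231, 17.1 and 23.4 CPM of tubule markers, had Vha sums of 17687, 17836 and 18625 CPM. Control gut libraries 110, 111 and 112, with 184, 209 and 27.3 CPM of tubule markers, had Vha sums of 18560, 16107 and 17008 CPM. Induced fat body libraries 101, 102 and 103, at 171, 211 and 219 CPM, had Vha sums of 2740, 3497 and 3381 CPM. Control fat body libraries 104, 105 and 106, at 87.2, 116 and 375 CPM, had Vha sums of 3169, 3331 and 4324 CPM. Among fat bodies, library 106 was thus highest in both, and it was also highest in fat body markers, at 91134 CPM. Among guts, library 107 was highest in tubule markers and library 109 in the Vha sum. The part of tubule RNA in the differences between tissues was not tested.

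Genes that work with the pump were set beside it from lists, to be read against the 25.5% of all genes that were higher and the 27.7% that were lower in the gut. Of 4 assembly and accessory genes, 3 were higher in the gut. These were ATP6AP2, an accessory protein of V0 (2.32 ± 0.32), and Rbcn-3A (1.44 ± 0.15) and Rbcn-3B (1.54 ± 0.16), which form the complex that puts V1 and V0 together. None of 7 Ragulator and Rag GTPase genes, which link the pump to TORC1 at the lysosome, passed the test, and their values lay between -0.19 and 0.30. Of 14 lysosomal hydrolase and lipid-handling genes 4 were higher and 5 lower in the gut, with Gba1a at 9.79 ± 0.45 and its paralogue Gba1b at -3.69 ± 0.37, and both counts were near the shares among all genes. Of 7 lysosomal membrane genes 2 were higher, Lerp (4.38 ± 0.23) and Cln3 (3.46 ± 0.22), and 1 was lower, spin (-0.94 ± 0.16). Mitf, the fly relative of TFEB and a regulator of lysosomal genes, differed by 0.47 ± 0.23 (edgeR adjusted p = 0.12) and REPTOR by -0.60 ± 0.14 (edgeR adjusted p = 0.0041), the only 1 of 4 listed lysosomal regulators past the test.

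Of 17 acid-base transport genes, such as ion transporters and carbonic anhydrases, 12 were higher and 2 lower in the gut, where 25.5% and 27.7% of all genes were, with a median of 0.93 against -0.04 over all genes. Nha1 and Nhe2, members of families of proton-coupled transporters, differed by 3.89 ± 0.34 and 2.02 ± 0.17, the carbonic anhydrase CAH2 by 1.98 ± 0.21, and CAH8 by -5.44 ± 0.46. The mitochondrial ATP synthase is a rotary enzyme of related build that makes ATP. Of its 13 genes 6 were higher in the gut and none lower, with a median of 0.39 and values between -0.19 and 0.98, below every leading Vha gene.

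Induction of Pnt RNAi changed no Vha gene past the test in either tissue. In guts, none of 20 passed at 10% FDR by edgeR, where 0.0483% of 10358 genes (5 genes) did. None of the 20 had an unadjusted edgeR p under 0.05, where 562 of 10358 genes did. The median log2 difference of induced minus control was -0.09 for the 20 genes, with values between -0.59 and 0.50, and -0.06 for all genes. In fat bodies, none of 21 passed, where 0% of 11056 genes did. Again none had an unadjusted edgeR p under 0.05, where 302 of 11056 genes did. By DESeq2 none passed in either tissue, with 43 genes called in guts and 16 in fat bodies, and none passed by limma on the deposited transformed values.

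**Figure D4:**
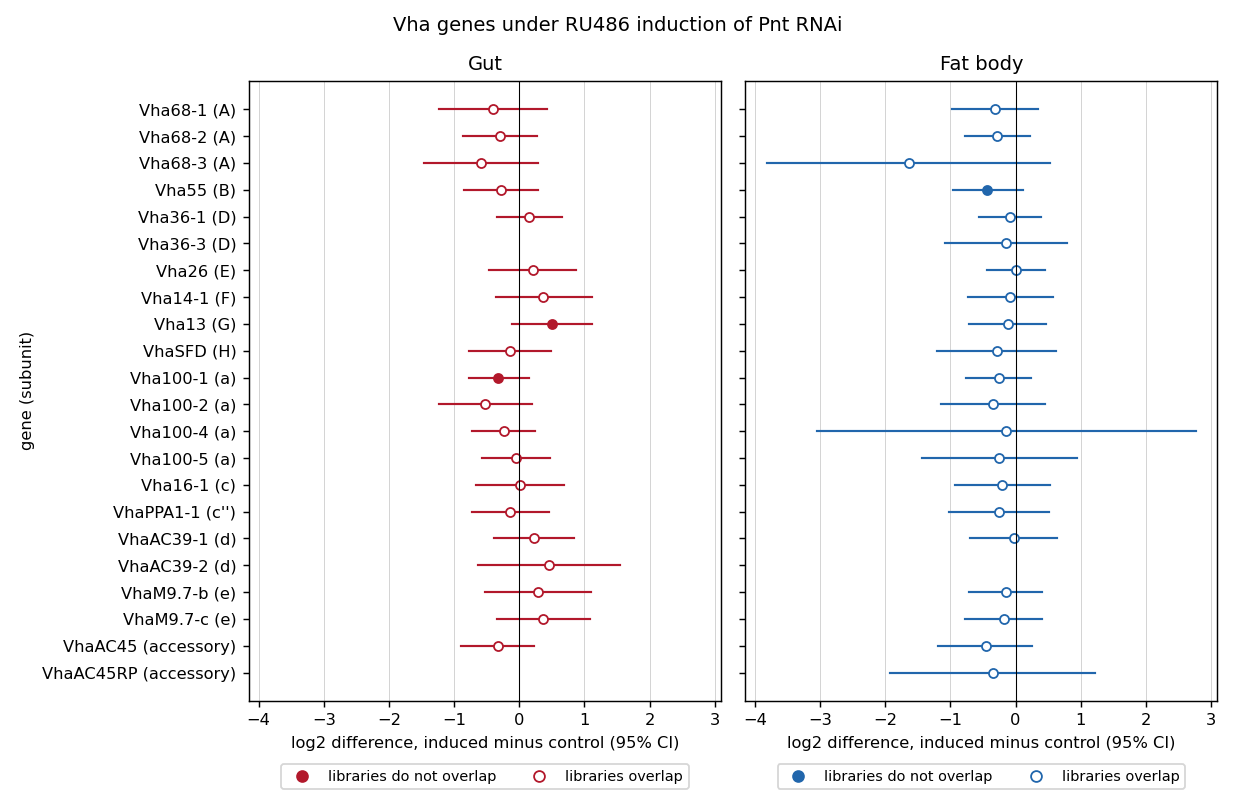
Log2 difference of induced minus control (x axis) for each Vha gene in guts (left) and fat bodies (right), with 95% confidence intervals from edgeR with 3 libraries per group; filled points mark genes whose induced and control libraries do not overlap. All intervals include 0, and the filled genes are Vha13 and Vha100-1 in guts and Vha55 in fat bodies.

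The intervals show how much these libraries could resolve. For Vha16-1 in guts the log2 difference was 0.01 with a 95% interval of -0.66 to 0.68, and for Vha68-2 it was -0.30 with an interval of -0.87 to 0.27. In fat bodies Vha26 had the tightest interval, -0.43 to 0.46, and Vha100-4, with few reads, the widest, -3.05 to 2.77. Changes inside these limits could not be resolved with 3 libraries a group.

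In guts, Vha13 had every induced library above every control library, as 1 of 20 Vha genes, where 5.45% of all genes did. Its length-scaled level was 2549, 1754 and 1877 in induced guts, against 1476, 1157 and 1688 in control guts, a log2 difference of 0.50 ± 0.27 (edgeR adjusted p = 0.836). Vha100-1, whose values are given above, was the 1 of 20 with every induced library below every control library, where 4.61% of all genes were, and differed by -0.32 ± 0.20 (edgeR adjusted p = 0.837). Both counts were near the share among all genes.

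Control library 112 decided the count in guts. Without it, 8.49% of 10357 genes (879 genes) passed in guts, and 1 of 20 Vha genes did, Vha100-2 (edgeR adjusted p = 0.0814). This gene had 51.1, 69.2 and 64 CPM per kilobase in induced guts and 102 and 104 in the other controls, with 52.5 in library 112. An unadjusted edgeR p under 0.05 was then reached by 7 of 20 Vha genes, where 3011 of 10357 genes did. The log2 differences of the 20 genes then lay between -0.77 and 0.90. Library 112 also differed from controls 110 and 111 in digestive markers, with 22219 CPM against 45968 and 44687. Induced guts had 26116 to 31189 CPM. Its tubule markers summed to 27.3 CPM against 184 and 209, and its fat body markers to 506 against 1374 and 1514. Muscle markers were alike, with 1497 against 1502 and 1500. The part of tissue make-up in the calls without library 112 was not tested.

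In fat bodies, Vha55 was the 1 of 21 with every induced library below every control library, where 3.92% of all genes were, and none of 21 had every induced library higher, where 4.22% of all genes did. The values of Vha55 given above yielded a log2 difference of -0.43 ± 0.23 (edgeR adjusted p = 0.986). The fitted values of 20 of the 21 genes were below 0, with a median of -0.25, against -0.05 over all genes. The 21 genes share the same 6 libraries and 1 scaling, and the share of all genes below 0 was not computed. When each library was left out in turn, 15 to 21 of the 21 were below 0. Without control library 106, 15 of 21 were below 0, with a median of -0.21, against 0.02 over all genes, and with scaling by total counts alone 13 of 21 were below 0, with a median of -0.05 against 0.12 over all genes.

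A difference between tissues in the response to induction did not pass for any Vha gene. None of 19 genes passed a test of the tissue by induction interaction by edgeR, where 0% of 10005 genes did. None of the 19 had an unadjusted edgeR p under 0.05, where 342 of 10005 genes did. By DESeq2, which called 13 genes in all, none of the 19 passed. Without libraries 106 and 112, 4 of 19 had an unadjusted p under 0.05, where 21.9% of 10005 genes did, and none passed after adjustment, the smallest edgeR adjusted p being 0.148. The leading isoform of subunit a was the same with and without induction in each tissue. Vha100-5 held 60.4%, 61.2% and 62.6% of subunit a in induced guts, against 55.6%, 51.3% and 60.1% in control guts. Vha100-2 held 60.6%, 60.6% and 59.9% in induced fat bodies, against 53.4%, 58.1% and 68.4% in control fat bodies. The Vha100-5 shares did not overlap, by 60.4% against 60.1% at the nearest, and the Vha100-2 shares did. How often other isoform shares separate in this way was not computed, and neither set was tested.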

How the data were processed

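Poly(A) RNA of pooled organs was sequenced from libraries with molecular identifiers. The authors removed duplicate reads and used HISAT2 for alignment and featureCounts for gene counts. Genes with no reads, or absent from the study's other RNA-seq experiment, had been dropped by them. The deposited counts are raw. The deposited score values are DESeq2's variance-stabilised, log2-like transform of them, used only as an alternative.

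Counts were tested with edgeR 4.0.16 in R 4.3.3 (quasi-likelihood, TMM, at least 1 count, Benjamini-Hochberg over all genes, 10% FDR), within each tissue for induction and over 12 libraries and 10005 shared genes for tissue and interaction. DESeq2 1.42.0 and limma 3.58.1 were alternatives. Errors beside log2 differences are standard errors. CPM used TMM over 12 libraries and was divided by exonic length (annotation BDGP6.54, same release 6 assembly as the study's) to compare genes. Symbols were matched for 10279 of 10358 gut and 10969 of 11056 fat body genes. Between libraries the biological coefficient of variation was 33.9% in guts and 39.8% in fat bodies. Fits were tested on simulated data. Members and lists were chosen with earlier results of these data known. Every Vha gene matched by current identifier is accounted for, and up to 4 genes per list are named. Per-library values are given for the leading isoforms of subunits A, B, a, c and e and for members without overlap on induction. Labels give no culture or pairing, so p-values measure the spread between pools, and no sequence is printed.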

Additional observations from a re-analysis of the deposited data

How the results depend on the processing

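The 19 differences between tissues kept their direction under all 20 other settings, which were other normalizations, filters, thresholds and tests, induced or control libraries alone, and libraries left out. The 16 genes that were higher in the gut passed under each of them. The number of genes that were lower in the gut was 1 with control libraries only, and 2 to 3 when each library was left out in turn. Scaling by total counts alone moved the median over all genes to -0.40, against -0.04 with TMM, and split all calls into 1837 higher and 4447 lower in the gut, against 2551 and 2771. The median of the Vha genes was then 1.93, and VhaM9.7-c passed at -0.72 (edgeR adjusted p = 0.0135). With the same scaling the median of the Vha genes was -0.05 in fat body induction and -0.05 in the interaction, where all genes had -0.24. The number of Vha genes called on gut induction was 0 to 1 when each library was left out, and 1 only without control library 112. Isoform shares moved by less than their spread when the longest transcript was used as length. No paired analysis was possible because the labels hold no replicate numbers. The interaction without libraries 106 and 112 was added after the data were seen. With 3 libraries a group, changes on induction smaller than the intervals given could not be resolved, and counts of a few reads, as for Vha100-4 and Vha68-3 in fat bodies, limit those values.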

Other observations

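Across the 20 Vha genes of the gut, the fitted value on induction tended to be lower for genes of greater exonic length. The 7 genes with under 1500 exonic bases, a limit chosen after the values were seen, had a median log2 difference of 0.37 with 6 of 7 above 0, and the 13 longer genes a median of -0.28 with 3 of 13 above 0. Pearson's r with log2 length was -0.74 and Spearman's rho -0.60 over 20 genes that share the same 6 libraries, which is a description without a test, and r was -0.76 without control library 112. In fat bodies r was -0.25 over 21 genes, and 0.04 without control library 106. Induced gut library 107 had the highest Vha13, Vha14-1, VhaM9.7-b and VhaM9.7-c levels of the 6 guts, and r without it was not computed. Nor was r computed over all genes, so the pattern may not be particular to the Vha genes.

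The ratio of the length-scaled levels of Vha55 and Vha13, which encode V1 subunits B and G, was 0.183, 0.255 and 0.257 in induced guts, against 0.422, 0.513 and 0.264 in control guts, and 0.331, 0.216 and 0.242 in induced fat bodies, against 0.254, 0.256 and 0.459 in control fat bodies. The ratio of Vha55 and Vha68-2, which encode B and A, lay between 1.31 and 1.41 in the 6 guts and between 1.27 and 1.85 in the 6 fat bodies. In the ratio of Vha55 and Vha13, control library 112, at 0.264, lay nearer to the induced guts than to the other controls.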
